A study of Arabidopsis thaliana with 30 samples.

Results

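The subject is a set of 4 small heat shock protein genes, AT1G52560, AT1G53540, AT2G29500 and ATHSP22.0 (locus AT4G10250), each read by 1 probe set on Affymetrix ATH1 arrays. They are 4 of the 22746 probe sets on the array that are not controls. They were picked by name, with earlier results of these data known, because their signals were among the strongest risers after high light. That rise is therefore given below as a description without a test.

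The study measured leaf transcripts of 21-day-old, soil-grown Arabidopsis thaliana plants on 30 arrays, 3 in each of 10 groups. The genotypes were knockouts (KO) and overexpressors (OE) of 2 genes, labelled Atwrky40 KO, Atwrky40.4 OE, Atwrky63 KO and Atwrky63.3 OE, and the accession Col0, here Col-0. Leaves were taken after high light (1000 µE m-2 s-1 for 1 h) and from untreated plants. WRKY40 and WRKY63 belong to the WRKY family of plant transcription factors. The labels name no promoter, insertion allele or number of plants per array and give 1 line for each knockout and overexpressor, and the design text has WRKY60 where the title and labels have WRKY63.

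Small heat shock proteins are chaperones that need no ATP. They bind proteins as these begin to unfold and hold them in a state from which HSP70 and HSP100 machines can refold them. Plants make them for several compartments, and in leaves at normal growth temperature their transcripts are scarce until heat or another protein-damaging stress activates heat shock factors. AT1G53540 and AT2G29500 are known as class I members of the cytosol and ATHSP22.0 as a member of the endoplasmic reticulum. The compartment of the AT1G52560 product is not given in the annotation used here, and arrays do not show where a protein resides, so no compartment is assigned to the set as a whole.

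Values are MAS5 signals, a linear brightness per probe set that had been scaled to a common array mean before deposit. Levels of different probe sets are not comparable, because probes differ in binding, so each gene is compared only with itself across arrays. Median signals ran from 147.7 to 164.2 over the 15 high light arrays and from 168.0 to 186.4 over the 15 untreated arrays. The log2 ratio between 3' and 5' probe sets of actin, which reflects RNA quality, had a median of 1.62 after high light and 1.67 without treatment. It was highest in WRKY63 OE high light replicate 3 (2.32) and Col-0 untreated replicate 2 (2.35). The light-harvesting gene LHCB4.2, a leaf marker, had signals of 9337 to 27537, and the root marker PYK10 had signals of 74.1 to 807. Whether replicates are separate plants is not in the labels, so the p-values rest on the spread between these samples and that spread may be technical. Genes were looked up only among probe sets that the annotation used here gives to 1 gene alone. The targeted transcripts, WRKY40 and WRKY63, were not analysed here.

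In every genotype all 4 genes had signals of 5664 or more after 1 h of high light and signals of at most 262 without treatment. AT1G53540 had signals of 30818, 25583 and 22284 in WRKY40 KO, 23367, 26978 and 24790 in WRKY40 OE and 30134, 26672.5 and 22941 in WRKY63 KO after high light. In WRKY63 OE it had 28332, 26436 and 26201, and in Col-0 29853, 33183 and 30136. The 15 high light arrays thus lay within a 1.49-fold span.

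Without treatment AT1G53540 had signals of 21.6, 37.9 and 34.0 in WRKY40 KO, 50.9, 50.1 and 6.61 in WRKY40 OE and 16.6, 40.1 and 34.2 in WRKY63 KO. It had 6.84, 68.5 and 40.5 in WRKY63 OE and 48.2, 3.82 and 37.1 in Col-0. No untreated array came near any high light array, and the untreated groups overlapped one another.

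AT2G29500 was similar after high light, with signals of 30700.3, 28471 and 26629.7 in WRKY40 KO, 25819, 29305 and 27088 in WRKY40 OE and 31914, 27472 and 24537 in WRKY63 KO. In WRKY63 OE it had 31479.8, 29336.5 and 27408, and in Col-0 33345, 35437 and 31207. The span over the 15 arrays was 1.44-fold.

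Its untreated signals were 19.5, 16.6 and 24.3 in WRKY40 KO, 38.0, 55.3 and 68.3 in WRKY40 OE and 45.3, 29.0 and 51.1 in WRKY63 KO. They were 29.2, 5.02 and 28.0 in WRKY63 OE and 54.8, 51.2 and 43.8 in Col-0. WRKY40 KO and WRKY63 OE lay below every Col-0 array.

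ATHSP22.0 had high light signals of 20159, 24246 and 19977.5 in WRKY40 KO, 13779.6, 20675.5 and 19735 in WRKY40 OE and 20462, 20320 and 17074 in WRKY63 KO. WRKY63 OE gave 22799, 22959.6 and 22553, the tightest of the groups, and Col-0 gave 19309, 25515 and 21265. Replicate 1 of WRKY40 OE was the lowest of the 15 arrays, which spanned 1.85-fold.

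Without treatment ATHSP22.0 had signals of 8.36, 57.7 and 74.1 in WRKY40 KO, 32.9, 63.6 and 92.6 in WRKY40 OE and 41.5, 93.6 and 53.0 in WRKY63 KO. It had 52.9, 14.6 and 102 in WRKY63 OE and 70.1, 9.74 and 72.8 in Col-0. These groups overlapped one another.

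AT1G52560 varied most between the lines. After high light it had signals of 11145, 11730.4 and 9682 in WRKY40 KO, 5664, 6657 and 8899 in WRKY40 OE and 10728, 10541 and 7903 in WRKY63 KO. WRKY63 OE gave 15928, 14170.1 and 16413, above all other arrays, and Col-0 gave 8571, 11543 and 10295. The 15 arrays spanned 2.90-fold.

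Without treatment AT1G52560 had signals of 21.0, 1.45 and 26.4 in WRKY40 KO, 4.25, 26.0 and 2.67 in WRKY40 OE and 4.12, 8.42 and 9.02 in WRKY63 KO. It had 262, 170.1 and 237 in WRKY63 OE, against 0.858, 1.11 and 3.91 in Col-0. Untreated WRKY63 OE was thus above all other untreated arrays and far below every high light array. The plot of signals by array shows all of these values.

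**Figure D1:**
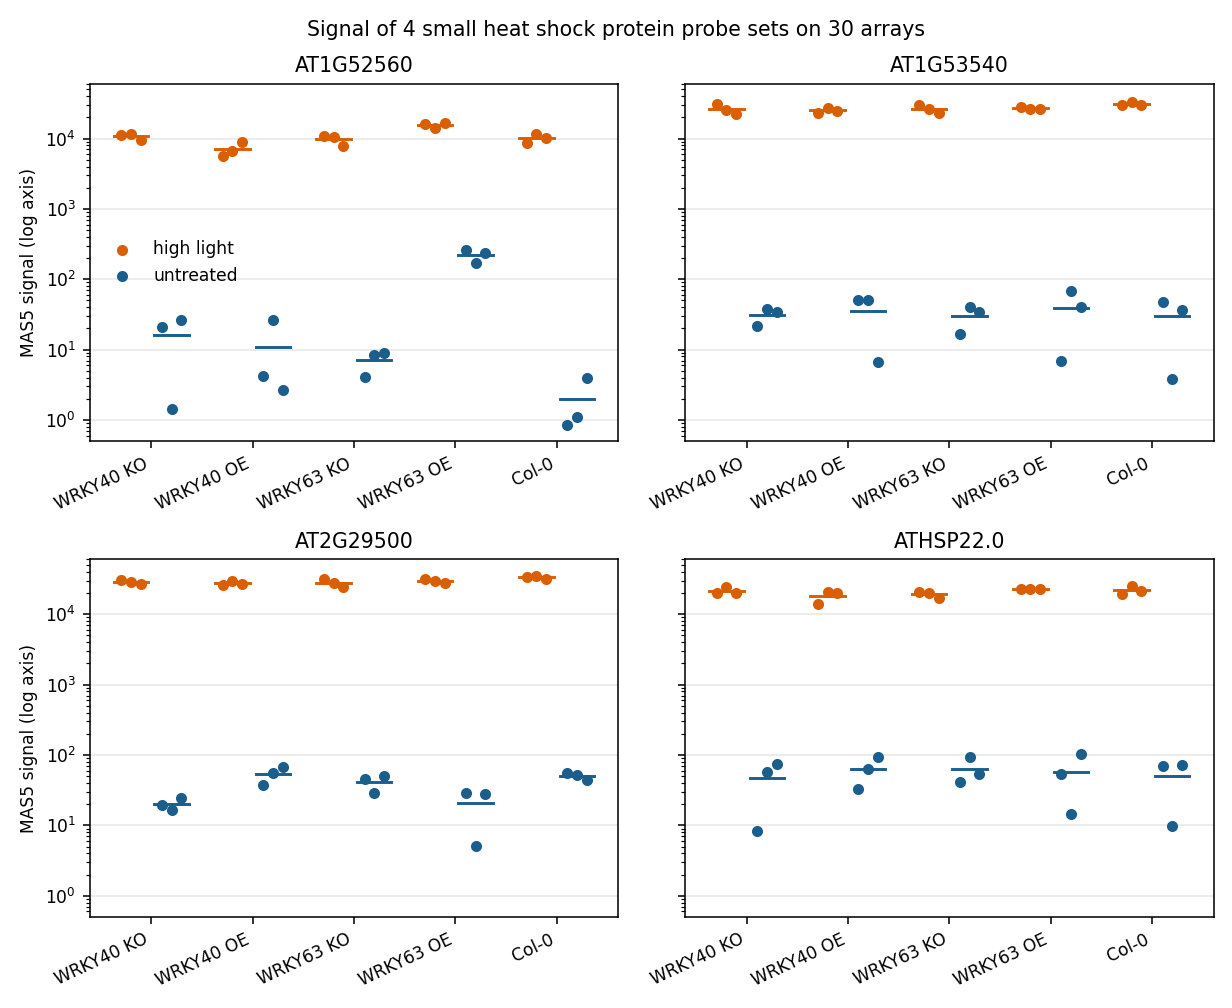
MAS5 signal (log axis) of the 4 small heat shock protein probe sets on all 30 arrays, by genotype; points are arrays, short lines are group means, orange is high light and blue is untreated. Untreated WRKY63 OE stands out for AT1G52560, at 170.1 to 262 against 0.858 to 3.91 in Col-0, while every high light array lies far above the untreated arrays of its gene.

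The low untreated values set a limit on every fold change. No detection calls were used here. Signals were analysed as log2(signal + 1) with limma over the 15922 probe sets whose mean log2 signal reached the 30th percentile, equal to a signal of 46.7. All 4 genes passed, but they passed through their high light arrays. Of the 15 untreated arrays, 12 lay under that signal for AT1G52560, 11 for AT1G53540, 10 for AT2G29500 and 5 for ATHSP22.0. At such levels a log2 change depends on the pseudocount, so values with a pseudocount of 16 are given beside those with 1. In bulk leaf RNA, a change in the number of cells with a transcript and a change in its amount per cell cannot be told apart. How many of all probe sets separate between groups was not counted, so a lack of overlap is a description only.

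The change with high light in Col-0 was 11.87 ± 0.62 on the log2 scale (limma estimate ± SE) for AT1G52560, and 9.14 with a pseudocount of 16. It was 10.54 ± 0.70 (9.57) for AT1G53540, 9.36 ± 0.35 (8.98) for AT2G29500 and 9.16 ± 0.66 (8.56) for ATHSP22.0. AT1G52560 had the largest of the 4 with the smaller pseudocount and AT1G53540 with the larger one, so their order is not settled.

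For AT1G53540 the change was 9.70 ± 0.70 in WRKY40 KO, 9.84 in WRKY40 OE, 9.81 in WRKY63 KO and 9.90 in WRKY63 OE. For AT2G29500 the same 4 lines had 10.41 ± 0.35, 9.00, 9.38 and 10.72, and for ATHSP22.0 they had 9.27 ± 0.66, 8.24, 8.32 and 9.01. For AT1G52560 they had 9.89 ± 0.62, 9.76, 10.26 and 6.13. The smallest of these, in WRKY63 OE, starts from the higher untreated level of that line and was 6.04 with a pseudocount of 16. An SE applies to all genotypes of a gene, since the fit shares 1 spread.

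All 4 genes were called higher after high light in each genotype, at an adjusted p under 0.05. Of all probe sets tested, 14.9% were called higher in Col-0, 14.3% in WRKY40 KO, 14.2% in WRKY40 OE, 14.2% in WRKY63 KO and 15.9% in WRKY63 OE. Because the genes were picked for this rise, nothing is read from their count. Their median log2 change was 9.79 in WRKY40 KO, 9.38 in WRKY40 OE, 9.60 in WRKY63 KO, 9.45 in WRKY63 OE and 9.95 in Col-0. The medians over all probe sets tested were -0.20, -0.17, -0.22, -0.25 and -0.18 in the same groups.

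The lines were compared with Col-0 within high light. The high light level of Col-0 enters the rise for which the genes were picked, so these tests are not independent of the choice. This comparison asks how far the loss or excess of a WRKY factor moved the level these genes reached. The 4 comparisons share the Col-0 arrays. None of the 4 genes was called in any line on all 30 arrays. The share of probe sets called was 15.2% for WRKY40 KO, 2.44% for WRKY40 OE, 0.0251% for WRKY63 KO and 10.2% for WRKY63 OE. Differences were small beside the rise itself: over the 4 lines they ran between -0.31 and -0.20 for AT1G53540, between -0.28 and -0.18 for AT2G29500 and between -0.30 and 0.06 for ATHSP22.0. The plot of high light levels shows these differences array by array.

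**Figure D2:**
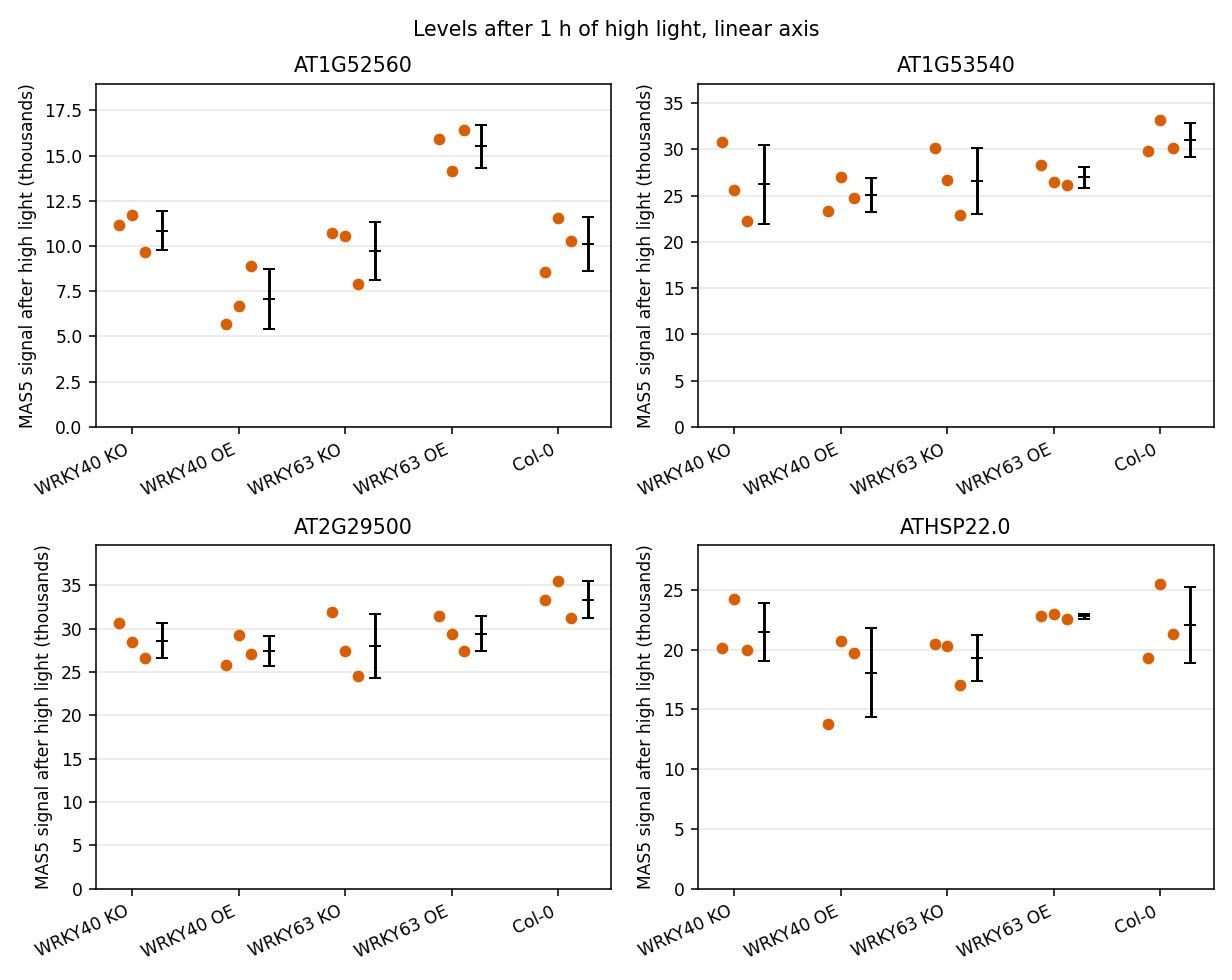
MAS5 signal after 1 h of high light (linear axis from 0), by genotype; orange points are the 3 arrays of a group and black bars are mean ± SD. AT1G52560 has its highest group in WRKY63 OE and its lowest in WRKY40 OE, while the group means of each other gene lie within 1.26-fold of each other.

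AT1G52560 averaged 15504 ± 1180.1 in WRKY63 OE after high light and 10136 ± 1492 in Col-0 (SD, n = 3 each), and the groups did not overlap. The log2 difference was 0.62 ± 0.62 (SE, limma adjusted p = 0.587) on all 30 arrays. That SE pools the wide scatter of the dim untreated arrays, where the SD of log2 signal within a group reached 1.92, with the narrow scatter after high light, where it ran up to 0.33 for this gene.

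A fit to the 15 high light arrays alone was added after this was seen. There the difference of AT1G52560 was 0.62 ± 0.16, with a 95% interval of 0.27 to 0.97 and an adjusted p of 0.0348 (limma), and 7.36% of probe sets were called. The call thus depends on which arrays estimate the spread. The difference itself was 0.51 to 0.72 when single arrays were left out and 0.61 with quantile normalization. WRKY63 OE, at 15504 ± 1180.1, was also above WRKY63 KO, at 9724 ± 1580.0, by 0.68 ± 0.62 (limma adjusted p = 0.516, with 13% of probe sets called). On the 15 arrays the interval was 0.33 to 1.04 (adjusted p = 0.017, 10.8% called), and the groups did not overlap.

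In WRKY40 OE AT1G52560 averaged 7073 ± 1657 after high light, against 10136 ± 1492 in Col-0, with groups that overlapped. The log2 difference was -0.53 ± 0.62 (limma adjusted p = 0.76). On the 15 high light arrays its interval was -0.89 to -0.18 and it was not called (adjusted p = 0.127, 1.65% of probe sets called). In the order of high light levels of AT1G52560, WRKY63 OE stood first without overlap, WRKY40 KO, Col-0 and WRKY63 KO followed with overlapping arrays, and WRKY40 OE came last, overlapping WRKY63 KO. WRKY40 OE lay below every array of WRKY40 KO, which averaged 10853 ± 1055. That difference was -0.64 ± 0.62 (limma adjusted p = 0.547, 18.5% called) on all arrays and had an interval of -0.99 to -0.29 (adjusted p = 0.0152, 16.5% called) on the 15 arrays.

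The knockouts themselves were close to Col-0 in AT1G52560 after high light. WRKY40 KO differed by 0.10 (limma adjusted p = 0.943), with a 95% interval of -0.25 to 0.46 on the 15 arrays. WRKY63 KO differed by -0.06 (limma adjusted p = 0.995), with an interval of -0.41 to 0.29. Either sign turned when single arrays were left out, to -0.011 for WRKY40 KO without Col-0 high light replicate 1. For WRKY63 KO the difference was 0.036 without Col-0 high light replicate 2 and 0.080 without WRKY63 KO high light replicate 3.

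The class I genes had slightly lower group means than Col-0 in each line after high light, without a call. AT1G53540 averaged 26228 in WRKY40 KO, 25045 in WRKY40 OE, 26582.5 in WRKY63 KO and 26989 in WRKY63 OE, against 31057 in Col-0. Its groups did not overlap with Col-0 in the overexpressors, with log2 differences of -0.31 (limma adjusted p = 0.897) for WRKY40 and -0.20 (adjusted p = 0.899) for WRKY63. For AT2G29500 WRKY40 KO (-0.22, limma adjusted p = 0.746) and WRKY40 OE (-0.28, adjusted p = 0.783) lay below all Col-0 arrays. These separations all use the same Col-0 arrays, and no lowering is read from them. Neither gene was called on the 15 high light arrays, where the lowest adjusted p over both and all 4 lines was 0.177. With quantile normalization the differences of WRKY40 OE were -0.07 and -0.06, and those of WRKY63 OE -0.07 and -0.04, so the size in the overexpressors rests on the scaling. The knockouts moved less under the alternatives other than leaving out arrays. There WRKY40 KO ran from -0.25 to -0.21 for AT1G53540 and from -0.22 to -0.15 for AT2G29500. WRKY63 KO ran from -0.23 to -0.16 and from -0.26 to -0.16.

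All 4 genes had their lowest high light group mean in WRKY40 OE. Of the 13 other heat response genes on the lists used here that rose in Col-0, 9 had their lowest mean there too. With quantile normalization WRKY40 OE was lowest for 1 of the 4 genes and 7 of the 13, so this order moves with the scaling. The share of all probe sets with their lowest mean in WRKY40 OE was not counted, so nothing is read from these counts.

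Without treatment AT1G52560 averaged 223 ± 47.5 in WRKY63 OE and 1.96 ± 1.70 in Col-0 (SD, n = 3 each). The log2 difference was 6.36 ± 0.62, and 3.72 with a pseudocount of 16. This difference was known when the genes were picked, so it is given without a test. It ran from 6.10 to 6.80 when single arrays were left out. Against untreated WRKY63 KO, the same WRKY63 OE arrays give a difference that the known level also fixes, so it too is a description: AT1G52560 averaged 223 ± 47.5 in untreated WRKY63 OE and 7.19 ± 2.67 in untreated WRKY63 KO, a difference of 4.81 ± 0.62, and 3.35 with a pseudocount of 16.

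AT2G29500 went the other way in that line, at 20.7 ± 13.6 in untreated WRKY63 OE against 49.9 ± 5.63 in Col-0. The log2 difference was -1.54 ± 0.35, -0.92 with a pseudocount of 16 and -0.78 without WRKY63 OE untreated replicate 2, whose signal was 5.02. This difference too was known when the genes were picked. Of all probe sets, 4.26% were called in this comparison on all 30 arrays and 4.33% on the 15 untreated arrays. The calls of AT1G52560 and AT2G29500 rest on the values known at the choice, so nothing is read from their number. AT1G53540 differed by 0.44 and ATHSP22.0 by 0.21, with groups that overlapped those of Col-0. The plot of differences from Col-0 shows AT1G52560 apart from the other genes in this line.

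**Figure D3:**
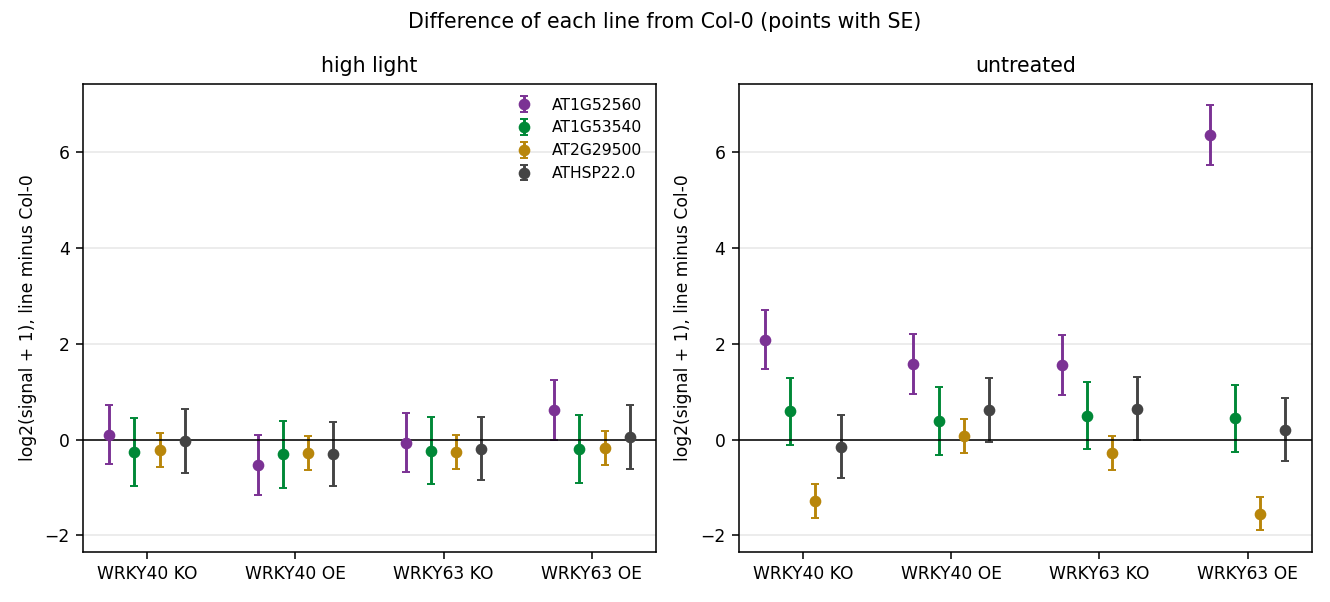
Difference of each line from Col-0 in log2(signal + 1), after high light (left) and without treatment (right); points are limma estimates on all 30 arrays and bars are SE. AT1G52560 in untreated WRKY63 OE, at 6.36, lies far from the other points, while after high light all differences lie between -0.53 and 0.62.

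The other small heat shock proteins did not share the size of that untreated difference. Of the 10 other genes of the family list that were kept, AT5G37670 was higher in untreated WRKY63 OE, by 0.78 (limma adjusted p = 0.0247). AT2G29500 and the mitochondrial member AT5G51440 (-1.05, adjusted p = 0.0381) were lower. These calls outside the 4 genes ended when single arrays were left out. For AT5G37670 the arrays were Col-0 untreated replicate 3 (0.55) and WRKY63 OE untreated replicates 1 (0.73) and 2 (0.74). For AT5G51440 they were Col-0 untreated replicates 1 (-0.86) and 2 (-1.14) and WRKY63 OE untreated replicates 2 (-1.06) and 3 (-0.50). Both genes were named after their values were seen. The mean of AT5G51440 in untreated WRKY63 OE, 29.4 ± 21.4 (SD), lay under the filter signal of 46.7.

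In untreated WRKY40 KO, AT2G29500 averaged 20.2 ± 3.90, against 49.9 ± 5.63 in Col-0. This difference of -1.28 ± 0.35, and -0.87 with a pseudocount of 16, was also known at the choice and is a description. Of the other 3 genes only AT1G52560 was called, in a comparison where 14.3% of all probe sets were. It was higher by 2.09 ± 0.62 (limma adjusted p = 0.0236), but its groups overlapped, at 16.3 ± 13.1 against 1.96 ± 1.70. The low Col-0 level also enters the rise for which AT1G52560 was picked, so this test is not independent of the choice. Outside the 4 genes, the small heat shock protein AT1G54050 was called in untreated WRKY40 KO, at -1.66 ± 0.19 (limma adjusted p = 3e-07). It was named after its values were seen.

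That call of AT1G52560 was fragile. The difference was 0.75 (limma adjusted p = 0.0591) with a pseudocount of 16. It was not called without Col-0 untreated replicate 1 (1.82) or 2 (1.91), or without WRKY40 KO untreated replicate 1 (1.61) or 3 (1.46), and it was 3.19 without WRKY40 KO untreated replicate 2. On the 15 untreated arrays it was not called (limma adjusted p = 0.26), against 14.5% of probe sets.

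None of the 4 genes was called in untreated WRKY40 OE or untreated WRKY63 KO against Col-0, where 2.45% and 0.502% of probe sets were. AT1G52560 had 1.58 ± 0.62 (limma adjusted p = 0.249) in WRKY40 OE and 1.55 ± 0.62 (limma adjusted p = 0.288) in WRKY63 KO, and 0.49 and 0.37 with a pseudocount of 16. Its signals in WRKY63 KO, 4.12 to 9.02, lay just above those of Col-0 without overlap. Both differences of AT1G52560 use the untreated Col-0 arrays, whose low level enters the rise for which the gene was picked. The other 3 genes differed by between -0.28 and 0.65 in these lines. Outside the 4 genes, the small heat shock protein AT5G51440 was called in untreated WRKY63 KO, at -3.25 ± 0.29 (limma adjusted p = 5.3e-07). It was not called on only the arrays compared (adjusted p = 0.163) and was named after its values were seen. Its mean in untreated WRKY63 KO, 4.52 ± 0.352 (SD), lay under the filter signal of 46.7.

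The untreated overexpressors and knockouts of 1 factor were also set against each other. For AT2G29500 these differences use the WRKY40 KO and WRKY63 OE arrays whose low levels were known at the choice, so they are given without a test. It averaged 53.9 ± 15.2 in WRKY40 OE and 20.2 ± 3.90 in WRKY40 KO, a difference of 1.35 ± 0.35 without overlap, and 0.93 with a pseudocount of 16. None of the other 3 genes was called on all arrays, where 16.1% of probe sets were, or on the 15 untreated arrays, where 16.6% were. Without WRKY40 KO untreated replicate 2, AT1G52560 was called lower there, with -1.61 (limma adjusted p = 0.0316), against -0.50 (adjusted p = 0.673) on all arrays.

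AT2G29500 averaged 20.7 ± 13.6 in WRKY63 OE and 41.8 ± 11.4 in WRKY63 KO, a difference of -1.26 ± 0.35 with groups that overlapped. It was -0.49 without WRKY63 OE untreated replicate 2. AT1G53540 and ATHSP22.0 were not called in this comparison, where 9.59% of probe sets were on all arrays and 10.6% on the 15 untreated arrays.

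Whether the response to high light itself differed from that of Col-0 was tested as an interaction. For AT1G52560 in WRKY63 OE the interaction was -5.74 ± 0.88, and -3.10 with a pseudocount of 16. It equals the high light difference of 0.62 minus the untreated difference of 6.36 that was known at the choice, so it is a description with no independent support. For AT2G29500 the interaction in the same line was 1.36 ± 0.50 and likewise contains a known untreated difference. AT1G53540 and ATHSP22.0 were not called, where 0.415% of all probe sets were.

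In the other lines no gene was called on all 30 arrays. The share of probe sets called was 1.03% for WRKY40 KO, 0.22% for WRKY40 OE and 0.113% for WRKY63 KO. AT1G52560 had interactions of -1.98 (limma adjusted p = 0.372), -2.12 (adjusted p = 0.514) and -1.61 (adjusted p = 0.581) in these lines, with an SE of 0.88. Without WRKY40 KO untreated replicate 2, whose signal was 1.45, the first of these was -3.09 (adjusted p = 0.0188). Each of these interactions subtracts the Col-0 rise, for which the gene was picked. Their signs and p-values are therefore not independent of the choice. AT2G29500 had 1.06 ± 0.50 in WRKY40 KO, which also contains a known untreated difference.

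On each array AT1G52560 was also set against the mean of the other 3 genes in log2(signal + 1). A scaling of the whole array cancels in this difference after high light, where signals are far above the pseudocount of 1. It does not cancel fully without treatment, where signals of AT1G52560 went down to 0.858. Only the change of the difference between groups can be read. Its values were as follows. Without treatment the difference was 2.26 to 3.49 in WRKY63 OE, -3.80 to 0.43 in WRKY40 KO, -3.32 to -1.08 in WRKY40 OE, -2.67 to -2.21 in WRKY63 KO and -4.97 to -2.72 in Col-0. After high light it was -0.88 to -0.62 in WRKY63 OE, -1.26 to -1.15 in WRKY40 KO, -1.93 to -1.41 in WRKY40 OE, -1.43 to -1.22 in WRKY63 KO and -1.64 to -1.40 in Col-0. WRKY63 OE was the highest group in both lights, without overlap with any other group. Its untreated value contains levels of AT1G52560 and AT2G29500 that were known at the choice, so that part is a description. The plot of AT1G52560 relative to the other genes shows both lights.

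**Figure D4:**
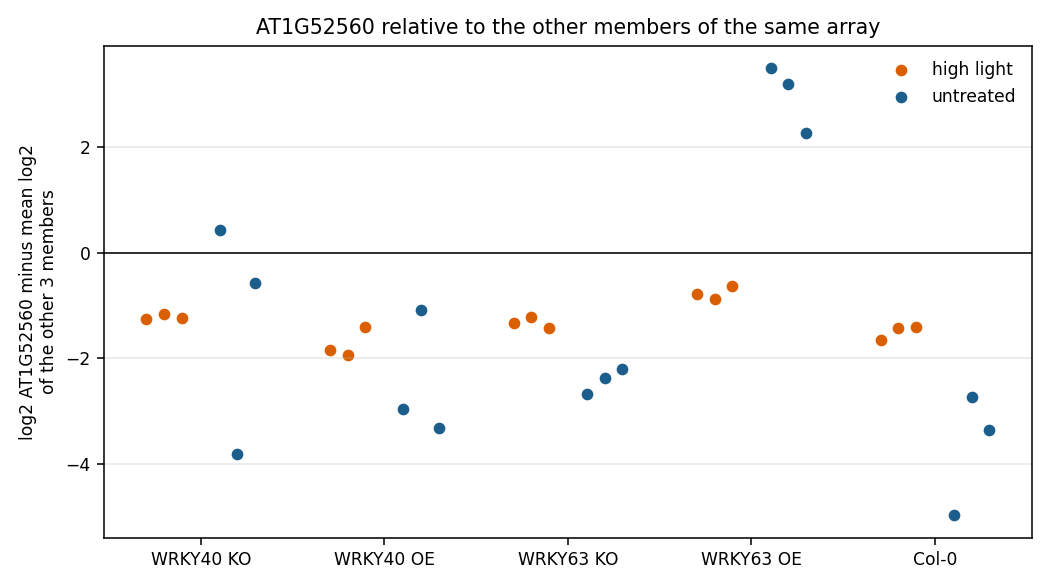
Log2(signal + 1) of AT1G52560 minus the mean of the other 3 genes on the same array, by genotype; points are arrays, orange is high light and blue is untreated. WRKY63 OE is highest in both lights, at 2.26 to 3.49 untreated and -0.88 to -0.62 after high light, against -4.97 to -2.72 and -1.64 to -1.40 in Col-0. The untreated levels of AT1G52560 and AT2G29500 in WRKY63 OE were known when the genes were picked.

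The genes were compared by their profiles, the 10 group means of log2(signal + 1) centred on their own mean, with the root-mean-square difference as the measure of likeness (smaller is more alike). AT1G53540, AT2G29500 and ATHSP22.0 lay 0.58 to 0.64 from each other, and AT1G52560 lay 1.49 to 1.94 from them. Among the 8764 other kept probe sets that name 1 gene, the 5 nearest to the average profile of the 4 were Hop3 (0.92), AT5G51440 (1.00), AT5G07330 (1.08), AT1G71000 (1.11) and AT5G48570 (1.25). Hop3 is a co-chaperone that links HSP70 and HSP90, and AT5G48570 (ROF2, FKBP65) is a peptidyl-prolyl isomerase. The 2 nearest to AT1G52560 were AT1G71000 (1.79) and AT5G51440 (1.82). The 2 nearest to AT1G53540 were AT5G51440 (0.98) and Hop3 (1.03), as they were for AT2G29500 (1.04 and 1.06). Nearest to ATHSP22.0 were Hop3 (0.56) and AT5G07330 (0.73). The contrast of light dominates this measure over only 10 group means.

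Other genes of the pathway were taken from 4 lists of Arabidopsis heat response genes. A gene counted as named only where the annotation gives a probe set to that gene alone. Of 19 small heat shock proteins, 11 are named in this way, and all 11 were kept. In Col-0 after high light 8 of them rose and none fell, with a median log2 change of 6.44 against -0.18 over all probe sets tested. Of all probe sets, 14.9% were called higher and 29% lower in Col-0, and 4 of the 8 risers are the genes picked for this rise. The 3 largest rises were AT1G52560, AT1G53540 and AT2G29500. The remaining risers were ATHSP22.0, AT5G51440 (8.30 ± 0.29), AT5G37670 (6.44 ± 0.20), AT1G54050 (5.33 ± 0.19) and AT2G19310 (3.89 ± 0.12), the last 3 named after their values were seen. The 3 that were not called were AT5G54660 (0.29), AT4G21870 (0.38) and AT5G47600 (0.83).

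The lines gave like counts, with 8 of 11 higher in WRKY40 KO, WRKY40 OE and WRKY63 KO. In WRKY63 OE 9 were higher and 1 lower, where AT5G54660 had 0.54 and AT5G47600 had -1.78. The shares of all probe sets called higher were 14.3% in WRKY40 KO, 14.2% in WRKY40 OE, 14.2% in WRKY63 KO and 15.9% in WRKY63 OE, where 35.3% were called lower. The medians were 6.95, 6.09, 6.60 and 5.77 in the 4 lines in the order of this paragraph. The calls of AT5G54660 and AT5G47600 both ended without WRKY63 OE high light replicate 2 (0.29 and -1.07), that of AT5G54660 also without WRKY63 OE untreated replicate 2 (0.43) and that of AT5G47600 without WRKY63 OE untreated replicate 1 (-1.39). The responses of these genes in WRKY63 OE were tested against those in Col-0 as interactions and neither was called, with 0.25 (limma adjusted p = 0.755) for AT5G54660 and -2.61 (limma adjusted p = 0.172) for AT5G47600. After high light AT5G47600 in WRKY63 OE differed from Col-0 by -2.40 ± 0.59 (limma adjusted p = 0.00957), where 10.2% of all probe sets were called. Its mean in WRKY63 OE, 19.3 ± 14.2, lay under the filter signal of 46.7, against 85.2 ± 9.66 in Col-0 (SD).

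Of 26 HSP100, HSP90 and HSP70 chaperones only 2 are named by a probe set for that gene alone, and both rose in Col-0. AT3G09440, an HSP70, changed by 2.90 ± 0.14 and Hsp70-2 by 2.61 ± 0.21. After high light 1 of the 2, Hsp70-2, was called higher in WRKY63 OE than in Col-0, by 1.42 ± 0.21 (limma adjusted p = 8.48e-05). AT3G09440 was not called there, the median of the 2 was 0.72, and 10.2% of all probe sets were called. None of the 21 heat shock factors is named by a probe set for that gene alone, so their transcripts were not analysed here.

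Of 18 co-chaperones and other heat response genes 10 are named and kept, of which 7 rose and 1 fell in Col-0, with a median of 3.90, where 14.9% of all probe sets were called higher and 29% lower. Hop3 rose by 8.82 ± 0.46, AT5G48570 by 7.24 ± 0.15 and HSA32, a protein linked to memory of heat stress, by 6.66 ± 0.27. Fes1B, a nucleotide exchange factor of HSP70, fell by 2.25 on the log2 scale, and Hop1 had -0.16 (limma adjusted p = 0.355). In WRKY40 KO after high light, 2 of the 10 were called lower than Col-0 and 0 higher, where 15.2% of all probe sets were called. In WRKY40 OE after high light, HSA32 differed from Col-0 by -1.08 (limma adjusted p = 0.0256). AT2G19310, from the small heat shock protein list, differed there by -0.59 (limma adjusted p = 0.00642), and 2.44% of all probe sets were called. The call of HSA32 ended without Col-0 high light replicate 2 (-0.94) or 3 (-0.78) or WRKY40 OE high light replicate 2 (-0.95), and on the 15 high light arrays (adjusted p = 0.103) and on only the arrays of both groups (adjusted p = 0.204). That of AT2G19310 ended without WRKY40 OE high light replicate 2 (-0.53) and with quantile normalization (-0.41). The plot of heat response genes in Col-0 shows all 3 lists.

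**Figure D5:**
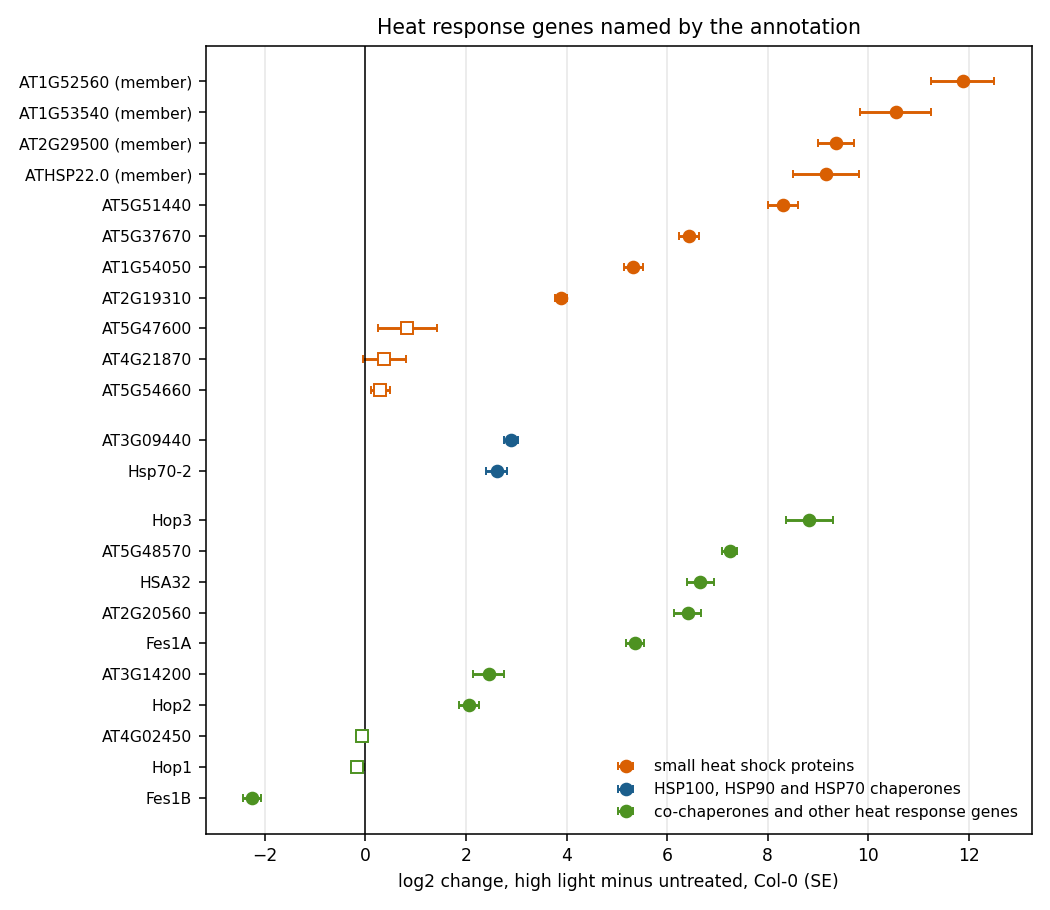
Change with high light in Col-0, in log2(signal + 1), of every kept gene of the lists that the annotation names; points are limma estimates, bars are SE, filled circles passed an adjusted p under 0.05 and open squares did not. The 4 genes of the set head the small heat shock proteins at 9.16 to 11.87, followed by AT5G51440 at 8.30, and Fes1B at -2.25 is the only gene called lower.

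The positions of the genes do not join them. AT1G52560 and AT1G53540 lie on chromosome 1 with 108 protein-coding genes between them, AT2G29500 lies on chromosome 2 and ATHSP22.0 on chromosome 4 (gene order from TAIR10.1). The named and kept genes nearest to AT1G52560 were AT1G52540, AT1G52550, AT1G52590 and AT1G52600. In untreated WRKY63 OE they differed from Col-0 by -0.24, 0.15, -0.29 and 0.22, and after high light by -0.05, -0.34, 0.16 and -0.04. None of these was called, where 4.26% of all probe sets were without treatment and 10.2% after high light. Among the nearest named and kept genes of the rest of the set, none was called in untreated WRKY63 OE. After high light only NTMC2T6.1 near AT1G53540 (0.48, limma adjusted p = 0.0327) and TUB7 near AT2G29500 (-0.49, adjusted p = 0.0363) were called among them.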

How the data were processed

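Total RNA from leaves was hybridised to ATH1 arrays, and the authors deposited 1 signal intensity per probe set, which the submitters' processing notes attribute to MAS5 without a version. After trimming 2 percent of values at each end, array means of the deposited intensities were 500.0 to 500.1. No arrays held identical values. With 3 arrays in a group, precision is limited by their number.

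From these, log2(signal + 1) was computed for all but 64 controls of the 22810 probe sets, and those reaching the 30th percentile of its mean (15922) were kept. The tests used limma 3.58.1 under R 4.3.3. All 30 arrays were fitted with 1 mean per group, with empirical Bayes moderation and a variance trend. The 21 comparisons comprised the light contrast in 5 genotypes, each line against Col-0 and each overexpressor against its knockout in each light, and 4 interactions. Calls required a p under 0.05 after Benjamini-Hochberg adjustment over all kept probe sets of a comparison.

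The 4 genes, the lists, the tests and the rule for named genes were chosen with earlier results of these data known. The rule named, from each list, the 3 largest rises and the 2 lowest changes with high light in Col-0, and the 5 probe sets nearest to the average profile and the 2 nearest to each gene. Groups and replicate numbers came from sample titles. Same-numbered arrays of different groups did not deviate together in all of their pairs in any comparison, so the numbers were not treated as pairs. Gene names are those of the platform annotation, which may be dated, with 13513 probe sets naming 1 gene. Class I small heat shock proteins are similar in sequence, so some cross-binding of their transcripts cannot be told apart here. The steps were tested on simulated data in which each probe set had the same spread on all arrays. That setting does not cover the unequal spread of the 4 genes between dim untreated and high light arrays. The alternatives were another pseudocount, other filters, quantile normalization, other sets of arrays in the fit, no variance trend, a replicate block and leaving out single arrays. The fit to the 15 arrays of 1 light was added after seeing the data.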

Additional observations from a re-analysis of the deposited data

Results flagged for a closer look

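Interaction tests of the response to high light against that of Col-0 passed the threshold for 3 of the 11 kept small heat shock protein probe sets, 1 in each of 3 lines. Of all probe sets, 1.03% were called in WRKY40 KO, 0.22% in WRKY40 OE, 0.113% in WRKY63 KO and 0.415% in WRKY63 OE. AT1G52560 in WRKY63 OE had -5.74 ± 0.88 (SE), and -3.10 with a pseudocount of 16. This value contains the untreated difference that was known when the gene was picked and gives no independent support. AT5G51440, the mitochondrial small heat shock protein, had an interaction of 2.98 ± 0.41 (limma adjusted p = 0.00236) in WRKY63 KO. Its untreated signal was 4.52 ± 0.352 in the knockout against 52.5 ± 13.1 in Col-0 (SD, n = 3 each), and with a pseudocount of 16 the interaction was 1.45 (limma adjusted p = 0.0541). The untreated mean of the knockout lay under the filter signal of 46.7, which this gene passed through its high light arrays. After high light its mean was 13893 ± 2807 in the knockout and 16582 ± 1027 in Col-0. The interaction thus rests on dim untreated values, and no stronger response is read from it. AT1G54050 rose more in WRKY40 KO than in Col-0, with 1.62 ± 0.26 (limma adjusted p = 0.00218). Its untreated signal was 195 ± 22.7 in the knockout against 636 ± 177 in Col-0, and with a pseudocount of 16 the interaction was 1.55 (limma adjusted p = 0.00206). In high light these 3 probe sets were not called in these lines against Col-0 on all 30 arrays.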

How the results depend on the processing

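The 107 values and counts were recomputed under each alternative, 1568 recomputations in all, of which 1476 kept direction and side of the threshold. The 4 genes were called higher after high light in every genotype under every alternative. The counts below include untreated differences of AT1G52560 and AT2G29500 that were known at the choice. The fit to only the arrays compared and the fit to the 15 arrays of that light changed the counts of the 4 genes called most often, by their different estimates of spread. Both gave 0 for WRKY40 KO against Col-0 untreated (2 on all arrays) and 0 for WRKY40 OE against WRKY40 KO untreated (1 on all arrays). Both gave 1 for WRKY63 OE untreated, against Col-0 and against WRKY63 KO (2 on all arrays in either). Both gave 1 after high light, where all arrays gave 0, for WRKY63 OE against Col-0 and for each overexpressor against its knockout. The interaction of WRKY40 KO had 1 called on only the arrays compared (0 on all arrays). WRKY40 KO against Col-0 untreated had 1 with a pseudocount of 16 and 1 without the 2 arrays of highest actin ratio. When single arrays were left out, counts ran from 1 to 2 for WRKY40 KO against Col-0 untreated and from 0 to 1 for its interaction. They ran from 0 to 2 for WRKY40 OE against WRKY40 KO untreated and from 1 to 2 for WRKY63 OE against WRKY63 KO untreated. Signs turned for AT1G52560 against Col-0 after high light with single arrays left out, where WRKY40 KO ran from -0.011 to 0.20 and WRKY63 KO from -0.18 to 0.080, and for AT1G52560 in WRKY40 OE against WRKY40 KO untreated, which ran from -1.61 to 0.13.

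Deviations of same-numbered arrays from their group means correlated between -0.126 and 0.319 (median 0.054 over 51 pairs), and in 0 of 17 comparisons did all pairs exceed 0.1. With the replicate number as a block, AT1G52560 in untreated WRKY63 OE kept its difference of 6.36 from Col-0, and no count of the 4 genes called changed. Most untreated signals of the 4 genes lay under the filter signal, so differences between untreated lines rest on dim values.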
